A study of Rattus norvegicus with 12 samples.

Results

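The genes described here encode the subunits of the proteasome and the proteins that assemble, activate or inhibit it. They were taken by name, as every record whose symbol is Psma, Psmb, Psmc, Psmd, Psme, Psmf or Psmg followed by a number, and where a symbol had several records the one with the highest mean FPKM was kept. This gave 46 genes among 22442 gene records and 18754 distinct gene names. Genes entered by name and not by a measured value, but this set of genes was chosen with earlier results of these data known. Psma8 and Psme3 had no record under those names and were not analysed here.

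The proteasome is the protease that degrades most ubiquitin-tagged proteins of the cell. Its barrel-shaped core is built of outer α rings (Psma genes) and inner β rings (Psmb genes), and the β subunits Psmb5, Psmb6 and Psmb7 carry the peptide-cutting sites. A regulatory particle, made of a base of ATPases (Psmc genes) and a lid (most Psmd genes), recognises, unfolds and feeds in the substrate. Under interferon the cell can make Psmb8, Psmb9 and Psmb10 in place of Psmb5, Psmb6 and Psmb7, and the resulting immunoproteasome cuts peptides suited to presentation on MHC class I molecules.

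The RNA came from fibroblast-like synoviocytes (FLS), the adherent fibroblast-like cells grown from synovial tissue, here from male Sprague Dawley rats with adjuvant arthritis after complete Freund's adjuvant (CFA) in a hind paw. Third-passage FLS were kept in DMEM alone (FCA group) or with the bile acid taurochenodeoxycholic acid (TCDCA) at 10 µM (AT10), 1 µM (AT1) or 0.1 µM (AT01) for 12 h, with 3 libraries in each of the 4 groups. All groups, FCA included, were cells of arthritic rats, and the sources used here do not say whether the libraries of a group came from separate rats or cultures, so the p-values measure only the spread between these libraries. The study compared each dose with FCA and the doses with each other, to find what TCDCA changes in the transcriptome of inflamed synovial cells.

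Values are FPKM, read fragments divided by the length of the exons of a gene and by the mapped reads of the library. They are per length and so allow levels of different genes to be set side by side. The study gives total reads per library, but the reads behind each value are not known, so no counting error can be given. The proteasome genes together made up between 0.853% and 0.94% of the summed FPKM of a library. As a check of the cell type, 10 of 12 synovial fibroblast markers had a record and all 10 had a mean above 1 FPKM, with Col1a1, a chain of type I collagen, at 846 FPKM and Thy1, a surface protein of fibroblasts, at 138 FPKM. Of 16 leukocyte markers 10 had a record, and only Cd68 (2.13 FPKM) and Cd14 (13.8 FPKM) had a mean above 1 FPKM, while the T cell gene Cd3e was at 0 in all 12 libraries. The summed leukocyte markers ranged from 7.24 to 22.7 FPKM in FCA, 19.0 to 21.8 in AT10, 6.10 to 18.3 in AT1 and 7.40 to 20.8 in AT01. Cd14 made up most of this sum, and in FCA alone it had an SD of 8.14 around a mean of 14.0 FPKM. All AT10 libraries lay above all AT1 libraries in the sum, while the other groups overlapped. The part of the sum in the results below was not tested. The 5 endothelial markers with a record summed to at most 0.21 FPKM in any library.

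The parts of the proteasome differed in level far more than the groups did. Of the 46 genes, 45 averaged 1 FPKM or more across the libraries and were tested. Their means ran from 1.16 FPKM for Psmb9 to 175 FPKM for Psmc3, a base ATPase. In the α ring the means lay between 21.7 FPKM (Psma3) and 127 FPKM (Psma2), and in the constitutive β ring between 46.7 FPKM (Psmb7) and 152 FPKM (Psmb3). The median gene of the core stood at 85.2 FPKM, that of the base at 78.1 FPKM and that of the lid at 66.3 FPKM.

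Within the particles the spread was wide. The base ran from Psmc6, the least abundant of its ATPases (41.3 FPKM), to Psmc3, and the lid from Psmd11, a scaffold subunit (24.3 FPKM), to Psmd8 (82.1 FPKM). The 4 chaperones that assemble the core ranged from 15.5 FPKM (Psmg4) to 34.2 FPKM (Psmg1), the 3 that assemble the base from 6.44 FPKM (Psmd10) to 15.2 FPKM (Psmd9), and the inhibitor Psmf1 stood at 12.6 FPKM. Psmb11, the β subunit of the thymus, had a mean of 0.041 FPKM and was listed at 0 in all 3 FCA libraries. It was the only one of the 46 genes below the limit for testing. How reads shared with near-identical gene copies and pseudogenes were assigned is not given in the sources used here, so the levels of single genes carry that uncertainty.

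**Figure D1:**
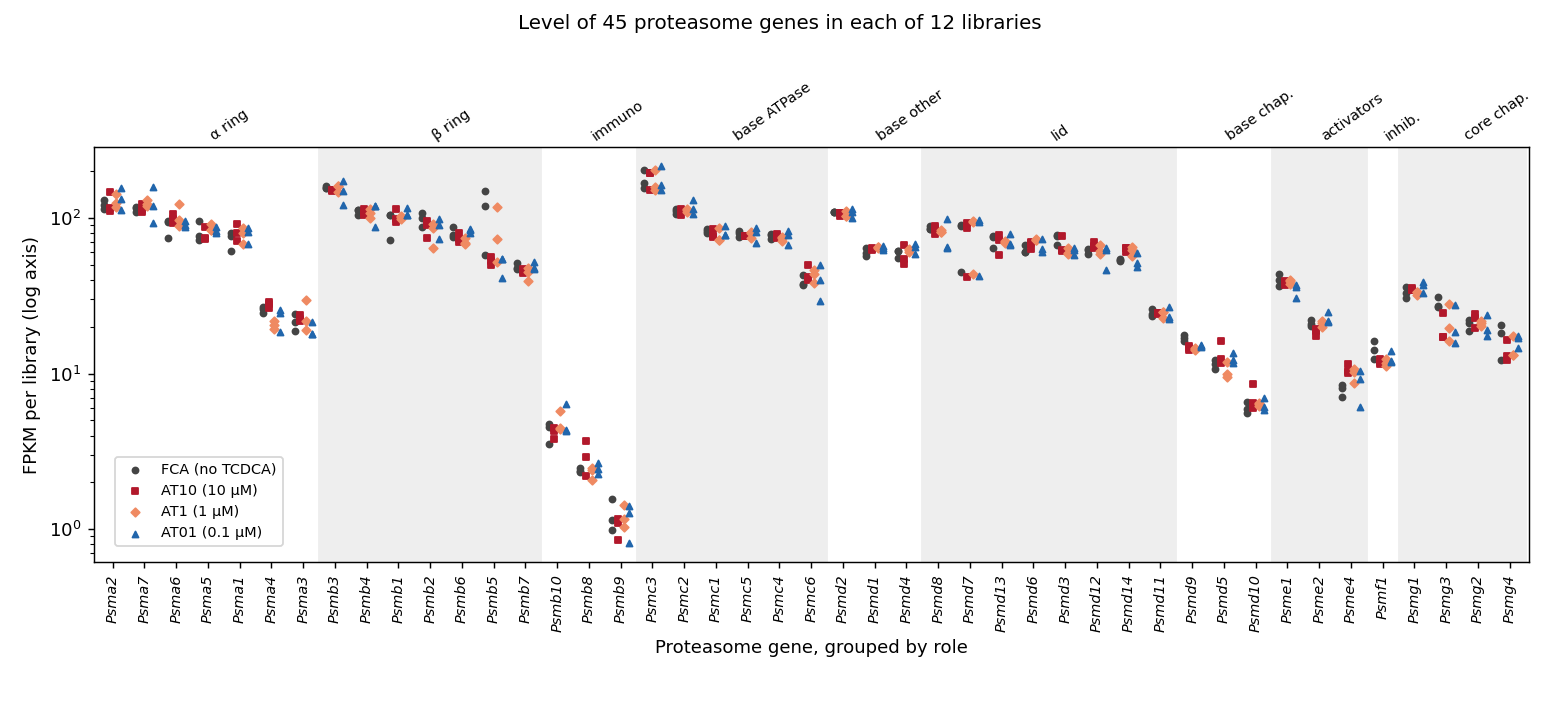
FPKM of the 45 tested proteasome genes in each of the 12 libraries on a log axis, ordered by role and by mean level, with a symbol for each group (immuno, immunoproteasome; base chap. and core chap., assembly chaperones of the base and the core; inhib., inhibitor). The 3 immunoproteasome genes lie at or below 6.40 FPKM, a level otherwise found only in libraries of Psmd10 and Psme4, and symbols of the 4 groups lie on top of each other for most genes.

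The summed level of each particle stayed within a narrow range. The 14 constitutive core genes summed to 1220 ± 29.2 FPKM in FCA, 1167 ± 65.2 in AT10, 1201 ± 60.4 in AT1 and 1183 ± 106 in AT01 (SD, n = 3 libraries). The 9 base genes summed to 791 ± 19.1, 790.0 ± 12.9, 784 ± 35.3 and 803 ± 57.2 FPKM in the same order. The 8 lid genes summed to 509 ± 16.9, 515 ± 28.2, 510.5 ± 19.2 and 486 ± 66.4 FPKM. For each of these particles the ranges of the groups overlapped. Within the core, the 7 constitutive β ring genes summed to between 663 and 742 FPKM in FCA and between 608 and 636 FPKM in AT10, with no overlap, and Psmb5, described below, took the largest part of the difference. The α ring sums of these groups overlapped.

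AT01 had the widest spread between libraries, since its replicate 1 held the highest sum over all members (2899 FPKM) and its replicate 3 the lowest (2424 FPKM). The other 10 libraries lay between 2630 and 2819 FPKM. Replicate 3 of AT01 was lowest in the core sum (1067 FPKM), the base sum (751 FPKM), the lid sum (410.1 FPKM) and the activator sum (62.6 FPKM), and replicate 1 was highest in the core sum (1274 FPKM) and the base sum (865 FPKM). Over all records the FPKM of AT01 replicate 1 also summed to more (309696) than those of replicate 3 (284240). The study lists more reads for AT01 replicate 3 than for any other library, and the part of depth in these sums was not tested.

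No member passed an adjusted p under 0.05 at any dose. In limma fits of log2(FPKM + 1) over 11611 records, with Benjamini-Hochberg adjustment over all of them, 0 of 45 genes were called in AT10 against FCA (0.172% of all records were called), 0 in AT1 against FCA (0.0947%) and 0 in AT01 against FCA (0.0947%). At an unadjusted p under 0.05, AT10 had 2 members higher and 4 lower than FCA, beside 7.54% and 4.34% of all records. AT1 had 3 higher and 3 lower, beside 5.56% and 5.44%. AT01 had 0 higher and 2 lower, beside 2.57% and 4.03%. Single libraries weighed on these totals, which became 3 in AT10 without FCA replicate 2 and 3 in AT1 without FCA replicate 1. In AT01 the total was 4 without AT01 replicate 1, 1 without FCA replicate 1 or 2, and 0 without FCA replicate 3 or AT01 replicate 2 or 3. Since fewer cells of a type and less RNA per cell cannot be told apart in bulk RNA, a difference in level here is a difference per total RNA.

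The midpoint of the members stayed near that of all records. Against FCA the 45 genes had a median log2 fold change of -0.017 at 10 µM, -0.0089 at 1 µM and -0.013 at 0.1 µM, and all records had -0.0085, 0.016 and 0.0017. Without AT01 replicate 3 the median of AT01 became 0.042. By role, the α ring had medians of 0.086, 0.11 and 0.060 in AT10, AT1 and AT01, the constitutive β ring -0.080, -0.14 and -0.032, the base -0.0019, -0.021 and -0.013, and the lid -0.018, -0.00030 and -0.022. These comparisons share their FCA libraries, so a deviation of those enters all 3.

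The spread between libraries sets the size of change that these data could show. The 95% interval of the log2 fold change lay within 0.5 of zero on both sides for 35 of 45 genes in AT10, 35 in AT1 and 33 in AT01 against FCA. It lay within 1 of zero for 43, 43 and 42 genes. The genes whose interval reached past 1 were Psmb5 and Psmd7 at each dose and Psmg3 in AT01. In the fit of all 9 TCDCA libraries against FCA, the interval of Psmb5 alone reached that far.

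**Figure D2:**
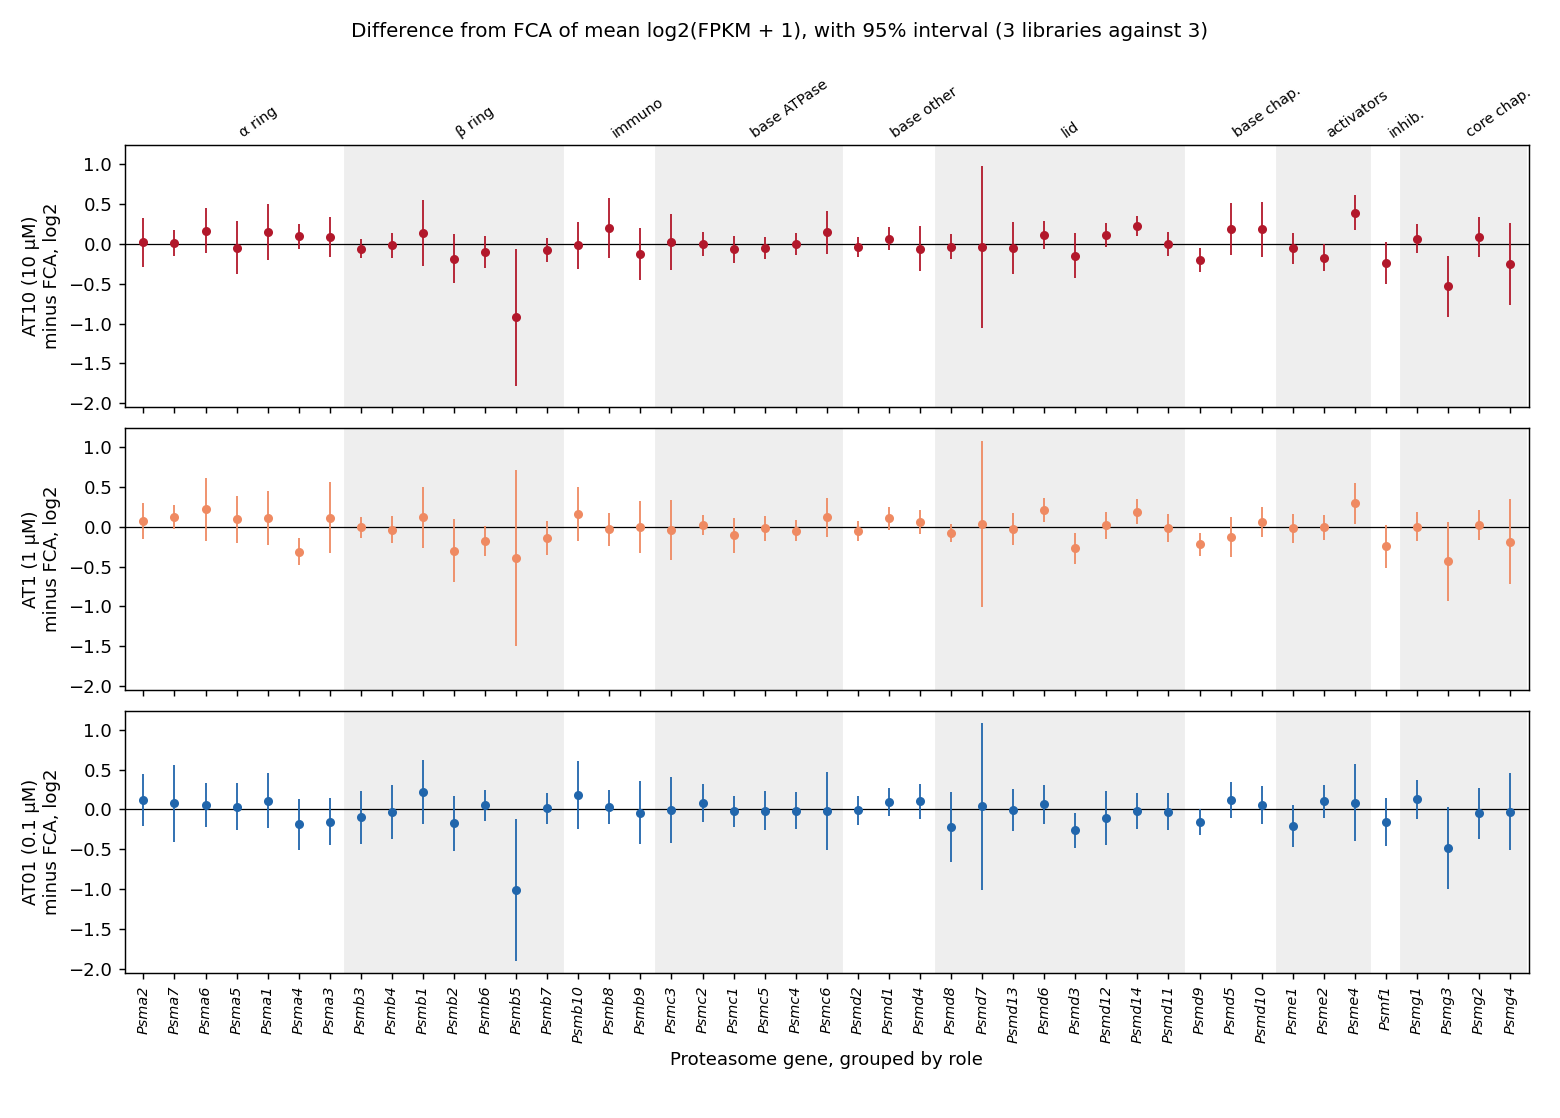
Difference of mean log2(FPKM + 1) from FCA (points) with its 95% interval from limma (bars) for each of 45 genes, in panels for AT10, AT1 and AT01, each 3 libraries against the same 3 FCA libraries. Most intervals include 0 and lie within 0.5 of it, and Psmb5 and Psmd7 have the widest.

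A further count needs no model, that of genes whose groups do not overlap. In AT10 against FCA, 10 of 45 genes (22.2%) had no FPKM value in common between the ranges of the groups, beside 19.9% of all records. In AT1 it was 10 of 45 beside 19.9%, and in AT01 3 of 45 beside 14%. The study counted a gene as changed at a p under 0.05, not adjusted, together with a change past 1 in log2 in either direction. The study took its p from Ballgown, and the rule was applied here with the limma p. By it Psmb5 in AT01, at a log2 fold change of -1.01, was the only member called, beside 0.706%, 0.62% and 0.758% of all records in AT10, AT1 and AT01.

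Among the catalytic subunits, Psmb5, the chymotrypsin-like site of the core, varied most. Its FPKM were 57.6, 147.8 and 119.2 in FCA, 55.7, 49.6 and 52.7 in AT10, 52.3, 117.2 and 73.0 in AT1, and 54.6, 54.1 and 41.0 in AT01. FCA replicate 1 lay just above the highest AT10 and AT01 libraries, and the high values were FCA replicates 2 and 3 and AT1 replicate 2. By limma the log2 fold change was -0.92 ± 0.35 (SE) in AT10 (adjusted p = 0.401), -0.39 in AT1 and -1.01 ± 0.36 in AT01 (adjusted p = 0.720). Without FCA replicate 1 the AT10 difference was -1.32 (adjusted p = 0.0509), and without FCA replicate 2 it was -0.65.

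The other catalytic subunits were steadier. Psmb6, the caspase-like site, was 87.1, 75.1 and 77.7 FPKM in FCA, 73.1, 70.4 and 79.8 in AT10, 69.2, 73.9 and 68.0 in AT1, and 83.1, 80.4 and 85.0 in AT01. Every AT1 library lay below every AT01 library, a log2 difference of -0.23 ± 0.07 (SE; limma adjusted p = 1). Psmb7, the trypsin-like site, ranged from 39.3 to 52.2 FPKM over the 12 libraries, and its log2 fold changes against FCA were -0.080, -0.14 and 0.012 in AT10, AT1 and AT01.

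The immunoproteasome subunits were detected at low level in every library and showed no shift that these tests could resolve. Psmb8 was 2.37, 2.48 and 2.32 FPKM in FCA, 2.93, 3.70 and 2.19 in AT10, 2.07, 2.39 and 2.49 in AT1, and 2.44, 2.68 and 2.28 in AT01. The AT10 range contained that of FCA, with replicates 1 and 2 above it and replicate 3 below. The log2 fold change was 0.20 in AT10 (95% interval -0.18 to 0.58, limma adjusted p = 0.620), -0.033 in AT1 and 0.031 in AT01.

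Psmb9 was the least abundant of the tested members. It stood at 1.15, 1.56 and 0.99 FPKM in FCA, 1.10, 1.16 and 0.86 in AT10, 1.44, 1.04 and 1.16 in AT1, and 0.82, 1.42 and 1.27 in AT01. All 4 groups overlapped. Its log2 fold changes were -0.13, -0.0089 and -0.044 in AT10, AT1 and AT01, and because 1 was added to each FPKM before the log, they understate changes of a gene this low.

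Psmb10 was the highest of the 3. Its values were 4.52, 4.73 and 3.52 FPKM in FCA, 4.27, 4.45 and 3.78 in AT10, 5.71, 4.48 and 4.38 in AT1, and 6.40, 4.37 and 4.27 in AT01. AT1 replicate 1 and AT01 replicate 1 lay above all FCA libraries, and the rest lay within the FCA range. The log2 fold changes were -0.019, 0.16 and 0.18, with limma adjusted p of 0.958, 0.652 and 0.828.

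Each immunoproteasome subunit was far below the constitutive subunit whose place it takes. Over the 12 libraries the FPKM ratio of Psmb5 to Psmb8 had a median of 24.2 (13.4 to 59.6), that of Psmb6 to Psmb9 a median of 66.7 (48.0 to 101), and that of Psmb7 to Psmb10 a median of 10.5 (7.83 to 13.3). On the log2 scale, with 1 added to each FPKM, the ratio of Psmb8 to Psmb5 was 0.84 higher in the 9 TCDCA libraries than in FCA (two-sided exact permutation p = 0.0182, Benjamini-Hochberg adjusted over 12 tests p = 0.218). Without FCA replicate 2 the difference was 0.58 and without FCA replicate 3 it was 0.70, and neither passed an unadjusted exact p under 0.05. Most of the difference in this ratio lay in Psmb5, with a log2 fold change of -0.77 over the 9 libraries, beside 0.066 for Psmb8. Taken dose by dose, that ratio differed from FCA by 1.12 at 10 µM, 0.36 at 1 µM and 1.04 at 0.1 µM, with exact permutation p of 0.1, 0.4 and 0.1. The differences for the other ratios ranged from -0.097 to 0.30 over the 4 comparisons with FCA, with exact p from 0.168 to 1.

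**Figure D3:**
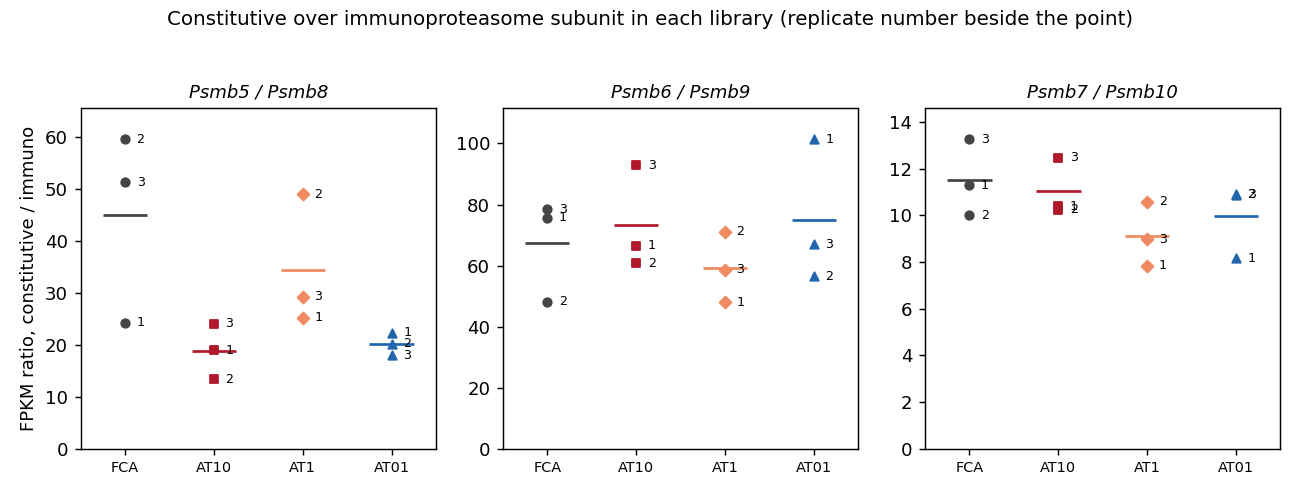
FPKM of the constitutive catalytic subunit divided by that of its immunoproteasome counterpart in each library (points, replicate number beside each) and the mean of the group (lines), with axes from 0. The highest values of Psmb5 to Psmb8 are FCA replicates 2 and 3 and AT1 replicate 2, and the groups overlap in the other panels.

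The promoters of these 6 genes are shown because Psmb8, Psmb9 and Psmb10 are known as genes that interferon induces and their counterparts as constitutive. Each line holds 150 bases from RefSeq (GRCr8), 140 before the annotated start and the first 10 of the transcript, read 5′ to 3′ on the strand of the gene. Capitals mark matches, on either strand, to GAAANNGAAA (core of the interferon-stimulated response element), TTCNNNGAA (core of the gamma-activated site), TGANNNNGC (core of the antioxidant response element), CCAAT and GGGCGG (GC box), and matches that overlap run together.
Psmb8 (chr20:4657022-4657171, minus strand): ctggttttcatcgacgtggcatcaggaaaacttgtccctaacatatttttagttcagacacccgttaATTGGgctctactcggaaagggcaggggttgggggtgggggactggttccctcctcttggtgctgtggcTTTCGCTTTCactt
Psmb9 (chr20:4668860-4669009, plus strand): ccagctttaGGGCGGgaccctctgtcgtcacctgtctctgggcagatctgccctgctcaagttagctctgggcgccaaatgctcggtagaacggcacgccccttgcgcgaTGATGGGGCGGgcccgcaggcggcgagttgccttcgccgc
Psmb10 (chr19:50743283-50743432, minus strand): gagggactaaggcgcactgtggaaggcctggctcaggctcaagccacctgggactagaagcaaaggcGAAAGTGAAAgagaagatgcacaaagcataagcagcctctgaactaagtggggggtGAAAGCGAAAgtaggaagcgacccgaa
Psmb5 (chr15:32047370-32047519, minus strand): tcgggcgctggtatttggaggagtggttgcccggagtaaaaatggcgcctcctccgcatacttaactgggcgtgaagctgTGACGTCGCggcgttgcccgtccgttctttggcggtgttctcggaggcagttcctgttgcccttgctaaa
Psmb6 (chr10:55737748-55737897, plus strand): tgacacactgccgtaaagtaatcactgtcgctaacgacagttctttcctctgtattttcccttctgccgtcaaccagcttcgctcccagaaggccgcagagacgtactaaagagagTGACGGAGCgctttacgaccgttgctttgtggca
Psmb7 (chr3:42827461-42827610, minus strand): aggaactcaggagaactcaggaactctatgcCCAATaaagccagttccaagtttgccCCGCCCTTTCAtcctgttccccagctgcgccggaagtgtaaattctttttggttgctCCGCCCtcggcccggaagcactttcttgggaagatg

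In these windows Psmb10 held the interferon element core in 2 places and Psmb8 held it across the annotated start, and Psmb9 held no match to it. Psmb5, Psmb6 and Psmb7 held no match to it either, and each of the 3, like Psmb9, held 1 match to the antioxidant element core. Over the whole window of the table, 250 bases before and 50 after the start, 41 of the 46 genes had a promoter entry. The interferon element core was found in 7 of the 41 (17.1%), among them Psmb8, Psmb10 and Psme2, beside 3.92% of 33469 promoters of the table.

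The GC box was found in 29 of the 41 promoters (70.7%, beside 33.1% of all), the CCAAT box in 20 (48.8%, beside 37.5%), the antioxidant element core in 21 (51.2%, beside 40.5%) and the gamma-activated site core in 4 (9.76%, beside 8.87%). In 5 of the 41 promoters matches to different motifs overlapped. A match is a description of letters and not evidence of binding.

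Among the activators, Psme4 was higher and Psme2 lower in AT10 than in FCA, neither past the adjusted threshold. Psme4 encodes PA200, a cap that opens the core without ubiquitin, and was 8.10, 7.08 and 8.43 FPKM in FCA, 10.1, 10.4 and 11.5 in AT10, 10.3, 8.65 and 10.7 in AT1, and 6.06, 9.25 and 10.5 in AT01. All AT10 and AT1 libraries lay above all FCA libraries, and AT01 replicate 1 lay below them. The log2 fold change was 0.39 ± 0.09 (SE) in AT10 (limma adjusted p = 0.207), 0.29 ± 0.11 in AT1 (0.435) and 0.086 ± 0.20 in AT01 (0.932).

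Psme1 and Psme2 encode the subunits of PA28, the interferon-inducible cap that works with the immunoproteasome. Psme2 was 21.9, 20.9 and 20.3 FPKM in FCA, 19.4, 18.9 and 17.3 in AT10, 21.1, 21.9 and 19.8 in AT1, and 24.8, 21.7 and 21.6 in AT01. The AT10 libraries were the lowest of the 12. The log2 difference was -0.18 ± 0.07 (SE) from FCA (limma adjusted p = 0.408), -0.17 ± 0.07 from AT1 (adjusted p = 0.748) and -0.28 ± 0.09 from AT01 (adjusted p = 0.867). Psme1 ranged from 30.5 FPKM in AT01 replicate 3 to 43.3 FPKM in FCA replicate 1, and its log2 fold changes were -0.057, -0.023 and -0.21 in AT10, AT1 and AT01.

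Among the subunits of the lid, Psmd14 had the smallest unadjusted p in AT10 against FCA. It encodes the enzyme that removes the ubiquitin chain from the substrate. Its FPKM were 52.9, 53.3 and 54.5 in FCA, 60.7, 64.1 and 63.7 in AT10, 62.3, 56.9 and 64.8 in AT1, and 51.2, 59.4 and 48.7 in AT01. All AT10 and AT1 libraries lay above FCA, and AT01 lay on both sides of it. The log2 fold change was 0.23 ± 0.05 (SE) in AT10 (limma adjusted p = 0.204) and 0.19 ± 0.06 in AT1 (adjusted p = 0.428), and AT10 exceeded AT01 by 0.24 ± 0.09 (adjusted p = 0.867).

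Psmd3, a scaffold subunit of the lid, went the other way. It was 78.0, 67.2 and 76.5 FPKM in FCA, 76.9, 62.5 and 61.0 in AT10, 58.6, 59.6 and 64.5 in AT1, and 64.4, 62.2 and 57.4 in AT01. AT10 replicate 1 lay within the FCA range and the other 8 TCDCA libraries lay below it. Over the 9 TCDCA libraries the log2 fold change was -0.23 ± 0.08 (SE; limma adjusted p = 0.347, two-sided exact permutation p = 0.0136 unadjusted).

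Psmd7, another lid subunit, was singled out after its values were seen. It was 90.2, 89.2 and 44.9 FPKM in FCA, 41.8, 85.4 and 93.1 in AT10, 94.1, 95.5 and 43.4 in AT1, and 97.3, 94.5 and 42.6 in AT01. In every group 1 library stood between 41.8 and 44.9 FPKM and the others at 85.4 FPKM or more. The gap of 0.91 in log2(FPKM + 1) was wider than the range on either side, and the fold changes of Psmd7 had wide intervals around values near 0 (-0.039, 0.037 and 0.039 in AT10, AT1 and AT01). A gap wider than the values on either side of it, whatever its width, was also found in Psmc3 (150.3 to 168 FPKM in 7 libraries and 193 to 214 in 5) and in 11.9% of all records.

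In the α ring, Psma4 gave the smallest unadjusted p among members for a comparison of doses. It was 25.9, 24.6 and 26.9 FPKM in FCA, 27.8, 26.5 and 28.6 in AT10, 21.8, 20.5 and 19.4 in AT1, and 25.4, 24.3 and 18.5 in AT01. The AT1 libraries lay below every library of FCA and AT10, and AT01 replicate 3 was lower still. AT10 exceeded AT1 by 0.41 ± 0.07 (SE) on the log2 scale (limma adjusted p = 0.216), and AT1 was below FCA by a log2 difference of -0.31 ± 0.07 (adjusted p = 0.362). The AT10 and AT1 libraries were also those that did not overlap in the summed leukocyte markers, a sum made up mostly of Cd14. The part of that sum in the Psma4 difference was not tested.

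Psmd9, a chaperone that holds an ATPase pair of the base during assembly, was the one member whose FCA libraries all lay outside the range of the 9 TCDCA libraries. It was 17.6, 17.0 and 16.2 FPKM in FCA, 14.2, 15.0 and 14.6 in AT10, 14.4, 14.5 and 14.2 in AT1, and 15.4, 15.0 and 14.7 in AT01. It was lower than every FCA library in 9 of 9 TCDCA libraries. Between doses, all AT1 libraries lay below all AT01 libraries, a log2 difference of -0.063 ± 0.059 (SE), and AT10 overlapped both. The log2 fold change over the 9 libraries was -0.20 ± 0.04 (SE; 95% interval -0.29 to -0.10), limma gave p = 0.000855 unadjusted and an adjusted p of 0.241, and the two-sided exact permutation p of 0.00455 is the smallest that 9 libraries against 3 can give. Groups without overlap were found for 1 of 45 members and for 2.86% of all records in this comparison.

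Psmg3 and Psmf1 were each below every FCA library in 7 of the 9 TCDCA libraries, as was Psmb5, and Psmd3 was in 8. The share of all records with such a count was not determined. Psmg3, a chaperone of the core chosen for its values, was 26.9, 31.0 and 27.3 FPKM in FCA, 24.5, 17.2 and 17.1 in AT10, 28.1, 19.5 and 16.2 in AT1, and 27.7, 18.4 and 15.6 in AT01. Replicate 1 was the highest library of each TCDCA group, and in AT1 and AT01 it lay within the FCA range. The log2 fold change was -0.53 ± 0.15 (SE) in AT10 (limma adjusted p = 0.297) and -0.48 ± 0.18 over the 9 TCDCA libraries (adjusted p = 0.355). Psmf1, which encodes the inhibitor PI31 and was also chosen for its values, had a log2 fold change of -0.22 ± 0.08 over the 9 libraries (adjusted p = 0.347).

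**Figure D4:**
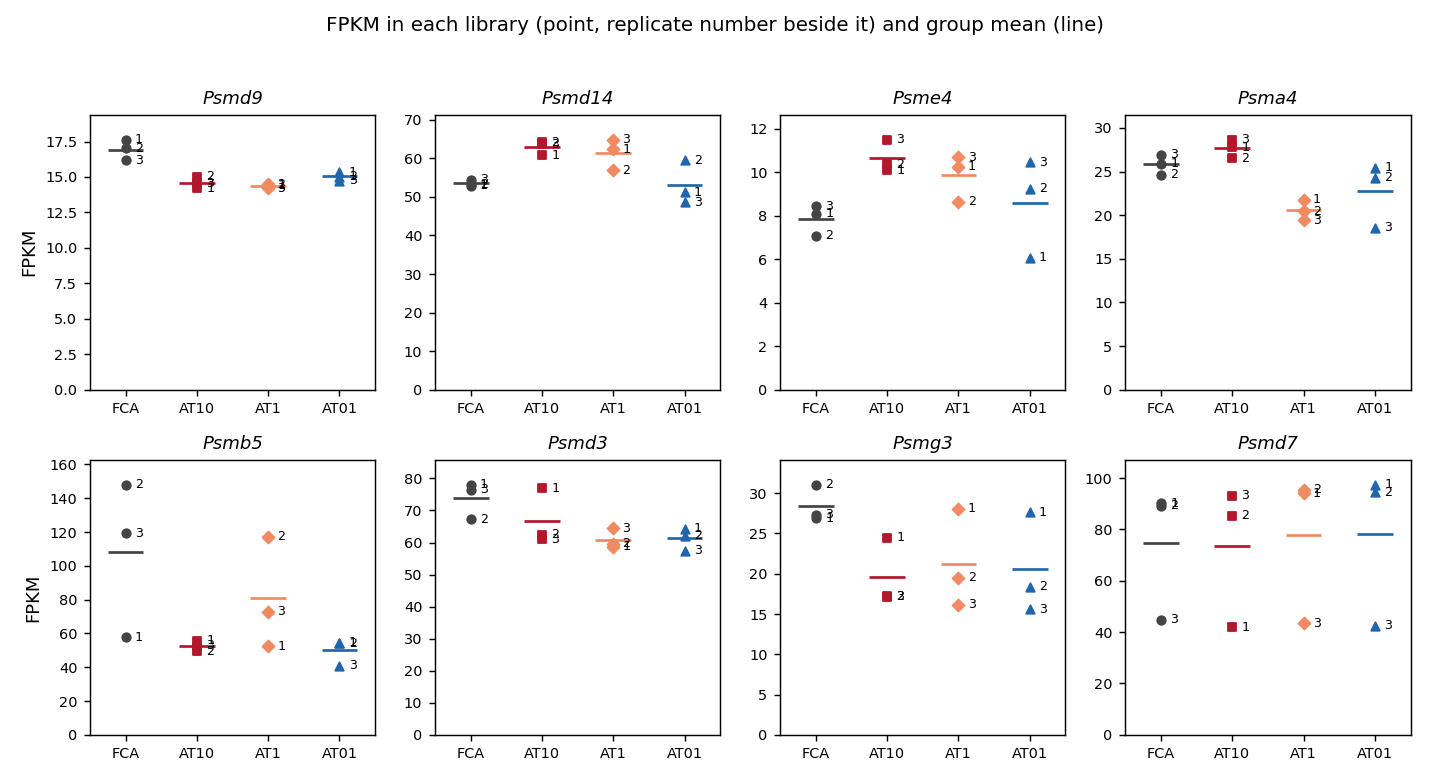
FPKM of 8 proteasome genes in each library (points, replicate number beside each) and group means (lines), with axes from 0. Psmd9 is lower in all 9 TCDCA libraries than in FCA, Psmd14 and Psme4 are higher in all AT10 and AT1 libraries, and Psmd7 has 1 library between 41.8 and 44.9 FPKM in each group.

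Taking the 9 TCDCA libraries together, 0 of 45 members were called by adjusted p (0.0258% of all records were). At an unadjusted p under 0.05, 0 members were higher and 5 lower (Psmd9, Psmd3, Psmf1, Psmg3 and Psmb5), beside 5.86% and 6.15% of all records, and the median of the members was -0.0079 beside 0.0031 over all records. Without FCA replicate 2, the number at an unadjusted p under 0.05 was 2.

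The comparisons between doses gave no call among the members. No member was called by adjusted p in AT10 against AT1 (0.258% of all records), AT10 against AT01 (0.0689%) or AT1 against AT01 (0.129%). At an unadjusted p under 0.05 there were 1, 3 and 1 members, beside 6.46%, 4.97% and 3.43% of all records. They were Psma4 in AT10 against AT1, Psme2, Psmd14 and Psma3 in AT10 against AT01 and Psmb6 in AT1 against AT01. The total of AT10 against AT1 became 2, 4 and 3 without AT10 replicate 2, AT10 replicate 3 and AT1 replicate 1. That of AT10 against AT01 became 0 without AT10 replicate 2 and 1 without AT01 replicate 3, and that of AT1 against AT01 became 4 without AT1 replicate 1, 2 without AT01 replicate 1 and 3 without AT01 replicate 2 or 3. Groups did not overlap for 5, 6 and 4 of the 45, beside 13.9%, 11.1% and 8.6%. The second smallest p of AT1 against AT01 was that of Psmd5, a chaperone of the base, with a log2 difference of -0.25 ± 0.11 (SE; limma adjusted p = 1).

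From library to library the members varied by amounts close to those of other records. The median SD of log2(FPKM + 1) over the 12 libraries was 0.15 for the 45 members and 0.18 for the 11611 records tested, and among records of at least 10 FPKM it was 0.14 for 40 members and 0.16 for 4362 records. Members moved together only weakly. The median Pearson correlation across the 12 libraries over the 990 combinations of 2 members was 0.12, beside 0.0070 over all combinations of tested records, and it was 0.20 within the base, 0.16 within the lid and 0.11 within the core. These 12 points include 4 groups and share the scaling of each library.

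Genes that work with the proteasome gave no call either. In the 7 comparisons 0 genes of 4 lists passed an adjusted p under 0.05: 11 tested partners of the proteasome, 8 genes that control its transcription, 16 genes of ubiquitin and its shuttles and 16 genes of antigen processing and interferon signalling. At an unadjusted p under 0.05 in AT10 against FCA, 2 partners were higher and 0 lower, 2 ubiquitin genes were higher and 1 lower, 3 antigen processing genes were higher and 0 lower, and 0 control genes were past that level. In AT1 the antigen processing list had 4 higher and 0 lower, the other lists 0 higher and 1 lower each, and in AT01 the only genes past that level were 2 ubiquitin genes that were lower. Of all records, 7.54% were higher and 4.34% lower in AT10, 5.56% and 5.44% in AT1, and 2.57% and 4.03% in AT01. The higher genes in AT10 were larger shares than that among partners (2 of 11), ubiquitin genes (2 of 16) and antigen processing genes (3 of 16). In AT1 the same held for antigen processing genes (4 of 16 higher). Where lower genes were found, they too were larger shares than among all records. These were 1 of 16 ubiquitin genes in AT10 and 2 of 16 in AT01. In AT1 they were 1 of 11 partners, 1 of 8 control genes and 1 of 16 ubiquitin genes. In AT10 against AT1 the antigen processing list had 1 higher and 3 lower, beside 2.72% and 3.74% of all records. The lists are short, and these shares were not tested.

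Of single genes in these lists, Pomp, the chaperone that matures the core, stood at 85.2 ± 6.30 FPKM in FCA, 81.9 ± 8.10 in AT10, 82.3 ± 11.9 in AT1 and 94.0 ± 6.41 in AT01 (SD, n = 3 libraries). Nfe2l1, the transcription factor that raises proteasome genes when degradation is blocked, was 45.5 ± 0.516 FPKM in FCA, 39.5 ± 4.61 in AT10, 44.3 ± 1.93 in AT1 and 41.6 ± 2.11 in AT01. All its AT10 and AT01 values lay below all FCA values, and AT1 overlapped FCA. Groups without overlap made up 19.9% of all records in AT10 and 14% in AT01. The log2 fold change of Nfe2l1 was -0.21 in AT10 (limma adjusted p = 0.440) and -0.13 in AT01 (limma adjusted p = 0.742). Tap1 had no record under that name and was not analysed here.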

How the data were processed

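Poly(A) RNA of 12 FLS libraries was sequenced. The authors aligned reads with HISAT2 and estimated expression with StringTie and Ballgown (the submitters' processing notes also name cutadapt and edgeR, with no role), and deposited FPKM for 22442 gene records, 1 column per library. Depth per record is unknown. The genome build is not given in the sources used here.

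The 11611 records averaging 1 FPKM or more were tested as log2(FPKM + 1) with limma 3.58.1 in R 4.3.3 (lmFit, eBayes with trend), 2 groups at a time and with the 9 TCDCA libraries against FCA, with Benjamini-Hochberg adjustment over all records. Single values also had two-sided exact permutation tests, whose smallest p for 3 libraries against 3 is 0.1. Promoters were searched with Python 3.11.15. The scripts were tested on simulated data.

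Named were the immunoproteasome and counterpart genes, the activators, in each comparison the members called and the 2 of smallest p, any member at 2 levels (a gap of at least 1 in log2; there were 0 such members), the most and least abundant of each class, and Pomp, Nfe2l1 and Tap1 (1 further gene of this rule is not reported here). Psmd7, Psmg3, Psmf1, Psma3, Psmc3 and Psmb11 were named after their values were seen. The members and lists were chosen with earlier results of these data known. Alternatives were another pseudocount, other filters, 1 fit over all groups, a Ballgown-style test, median-of-ratios scaling, sums by name, a replicate block and each library left out.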

Additional observations from a re-analysis of the deposited data

Results flagged for a closer look

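The following records lay outside the tests and were highest in a library with TCDCA. Psmb11, whose mean was under the limit for testing, reached 0.19 FPKM in AT01 replicate 2 and was listed at 0 in all 3 FCA libraries and in 4 of the 9 TCDCA libraries. The second and less abundant record of Psmg2 reached 1.06 FPKM in AT01 replicate 1, beside 1.03 FPKM in FCA replicate 3. Both differences are within the spread between libraries of a group, and neither was tested.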

How the results depend on the processing

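The count of members called by adjusted p stayed at 0 in each of the 7 comparisons under every alternative run. Leaving out 1 library moved the median log2 fold change of the members between -0.034 and 0.042 in AT01 against FCA, between -0.061 and 0.080 in AT10 against AT01, and between -0.087 and 0.027 in AT1 against AT01, the ends past the spread of a library coming without AT01 replicate 1 or 3. Removing Psmb5, Psmd7 and Psmg3, chosen after seeing the data, gave medians of -0.0020, -0.0089 and -0.012 in AT10, AT1 and AT01 against FCA. With 1 library left out, signs changed for small differences: Psmb8 ran from -0.071 to 0.021 in AT1 and from -0.013 to 0.070 in AT01, Psmb9 from -0.088 to 0.094 in AT1, from -0.13 to 0.078 in AT01 and from -0.14 to 0.043 over all doses, and Psmb10 from -0.12 to 0.047 in AT10. The difference in log2 ratio of Psmb8 to Psmb5 over all doses ran from 0.58 to 1.23, that of Psmb9 to Psmb6 from -0.11 to 0.12 in AT10, from -0.20 to 0.049 in AT01 and from -0.069 to 0.16 over all doses (-0.025 with a pseudocount of 0.1), and that of Psmb10 to Psmb7 from -0.020 to 0.14 in AT10. The cause was not tested.

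The study calls the numbers 1 to 3 repeated sets without saying what the libraries of a set share. Correlations of the deviations of same-numbered libraries lay between -0.11 and 0.094 (18 correlations), so the numbers were not taken to pair them, and a shared set was not excluded. With the replicate number as a replicate block, 0 members were called in each comparison, and at an unadjusted p under 0.05 the members were 3 in AT10 (6 without the block), 9 in AT1 (6) and 1 in AT01 (2) against FCA, and 1 in AT10 against AT01 (3). Depth behind each FPKM is unknown, so counting error for low genes such as Psmb9 could not be given.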
